A study of Homo sapiens with 2 samples.

Results

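The genes of Mediator, TFIID and RNA polymerase II, the machinery that starts transcription of protein-coding genes, were followed in THP-1 cells, an established human monocytic leukaemia line. Members were chosen by gene symbol alone (MED and TAF genes with a number, the POLR2 subunits A to L, TBP, CCNC, CDK8 and CDK19, without the TAF1A to TAF1D genes of polymerase I), not by a measured value. Transcripts were added up by gene symbol, and 10601 genes averaged 1 FPKM or more across the libraries; 64 of these were members, and no matching symbol lay below that level. They comprised 32 Mediator genes, 19 TFIID genes and 13 RNA polymerase II genes, carried by 172 of the 29373 listed transcripts. One culture received OPA1, an agent named only by that code and not the mitochondrial gene with the same symbol, at 2 µM, and the other received DMSO, the solvent, each for 48 h. Both cultures were the same unmodified line and differed in the agent alone, as far as the labels say. Each treatment was 1 library of total RNA, so no difference has a replicate check and no test was possible. FPKM counts fragments per length of transcript and per size of library, so levels can be compared between genes, but they are relative amounts: fewer cells of a type and less RNA per cell cannot be told apart.

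RNA polymerase II is the multi-subunit enzyme that makes messenger RNA. TFIID, built from the TATA-binding protein TBP and its associated factors (TAFs), recognises the core promoter and seeds the preinitiation complex. Mediator relays signals from activators bound at enhancers to the polymerase. Its head and middle modules contact the polymerase, its tail is bound by activators, MED14 joins these modules, and a separable kinase module holds cyclin C with CDK8 or its paralog CDK19. In acute myeloid leukaemia cells the Mediator kinases are known for restraining genes driven by enhancers.

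All listed transcripts together had 331515 FPKM in the OPA1 library and 325059 FPKM in the DMSO library, and the read depth is unknown. The middle 50% of all genes had log2 ratios of OPA1 over DMSO between -0.15 and 0.16. Ratios on the log2 scale were taken after adding 1 FPKM, which makes differences of low genes smaller, and 2-fold counts use the same scale. A fold beside a named gene divides its FPKM values with nothing added. Of the 13 markers listed for a monocytic leukaemia line, 11 were measured and summed to 1710 FPKM in the OPA1 library and 1459 FPKM in the DMSO library. The T and NK cell list gave NKG7 alone, at 27.9 FPKM with OPA1 and 26.9 FPKM with DMSO, and 3 B cell genes summed to 1.40 FPKM with OPA1 and 0.98 FPKM with DMSO. The erythroid list and the epithelial and fibroblast list gave no value here.

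The 3 complexes differed in how level they were. The 13 polymerase genes were nearly level, the 32 Mediator genes leaned lower in the OPA1 library, and the 19 TFIID genes were mixed, with more of them higher but a lower sum. No member was 2-fold higher, while 4 were at least 2-fold lower: MED29 and CCNC of Mediator, and TBP and TAF5L of the TFIID list. These 4 are 6.25% of the members. Of all genes, 1.99% were 2-fold lower, 1.97% were 2-fold higher and 3.96% were 2-fold apart either way. Conversely, 30 members, or 46.9%, lay within 0.1 of 0 on the log2 scale, against 34.3% of all genes. In total 31 members were higher and 33 lower, and their median log2 ratio was -0.01; at any size, 49.9% of all genes were higher and 50.1% lower.

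**Figure D1:**
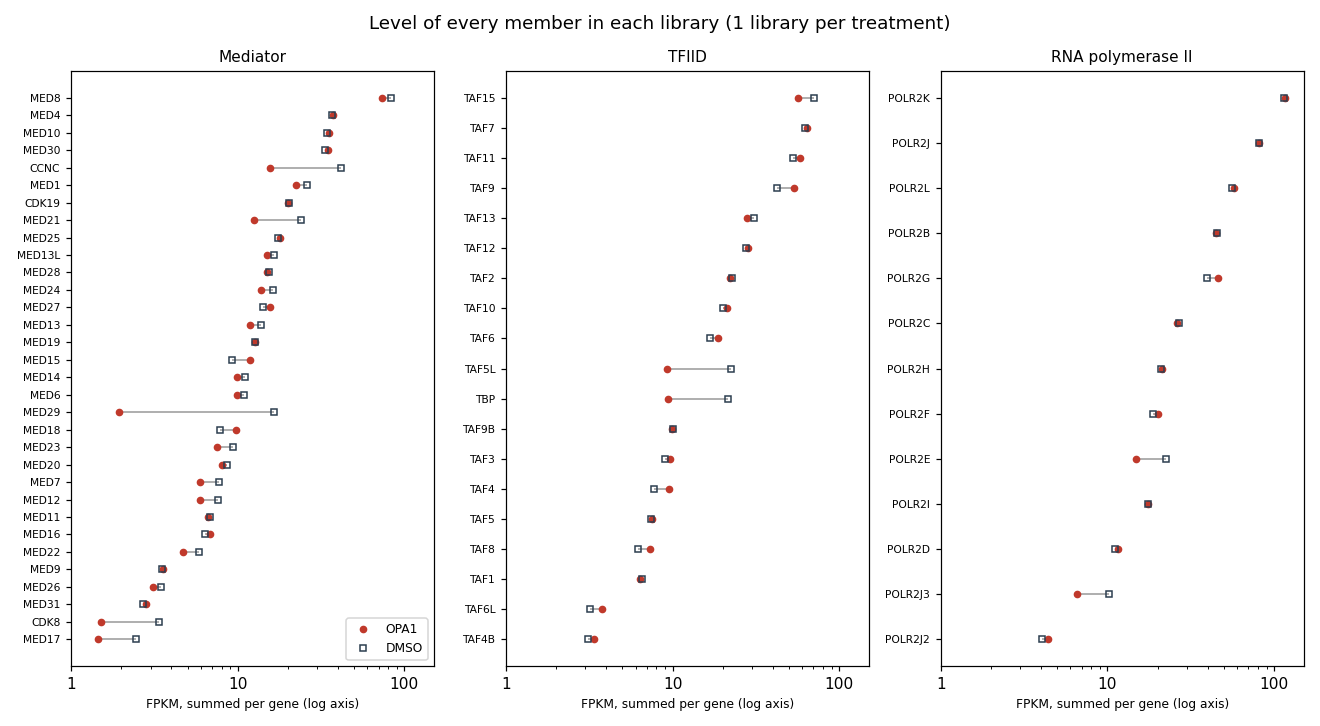
FPKM of each of the 64 members, summed over its transcripts, on a log axis; filled circles are the OPA1 library, open squares the DMSO library, and there is 1 library per treatment and no error bar. Most pairs of points overlap, while MED29 (1.94 with OPA1 and 16.6 with DMSO), CCNC, TBP and TAF5L lie well apart.

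Mediator genes were lower in 21 of 32 cases and higher in 11. Their median log2 ratio was -0.12, with the middle 50% between -0.27 and 0.02. The summed Mediator level was 454 FPKM in the OPA1 library and 529 FPKM in the DMSO library. At the smaller size of 1.5-fold, 4 Mediator genes were lower and 0 higher, beside 5.08% of all genes lower and 5.43% higher. Levels within Mediator ran from MED17, the lowest member of all with a mean of 1.95 FPKM, to MED8, a head subunit at 73.1 FPKM with OPA1 and 82.9 FPKM with DMSO.

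Every measured member of the kinase module was lower in the OPA1 library. All 6 had negative log2 ratios, from -1.37 to -0.03, with a median of -0.25, and together they summed to 69.8 FPKM with OPA1 and 103 FPKM with DMSO. This describes the gene sums. Without the most different transcript of each gene, 4 of the 6 were higher and 2 lower. In all 6 that transcript was itself lower with OPA1, so leaving it out works against the lower sum by construction. The same limit holds wherever this check is given below, since that transcript mostly ran the way of its gene. Genes with 1 listed transcript kept their full sum in it. The remaining 26 Mediator genes split 11 higher to 15 lower, with a median of -0.07. CCNC, which encodes cyclin C, the activating partner of the kinases (chromosome 6, 99990256 to 100016849, hg19), stood at 15.5 FPKM in OPA1-treated cells and 41.6 FPKM in DMSO-treated cells. That is a log2 ratio of -1.37, or 2.68-fold lower, and CCNC supplied most of the difference in the module's sum. CDK8, the cyclin-dependent kinase of the module (chromosome 13, 26828276 to 26979375), was at 1.51 FPKM with OPA1 and 3.38 FPKM with DMSO. It is 2.24-fold lower as a plain ratio, but its log2 ratio of -0.80 kept it out of the 2-fold count because the level is low.

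CDK19, the paralog that can take the place of CDK8 (chromosome 6, 110931181 to 111136519), was level as a sum, at 20.0 FPKM with OPA1 and 20.4 FPKM with DMSO. CDK19 was therefore the more abundant of the paralog kinases in both libraries, at 13.3 times the CDK8 level with OPA1 and 6.05 times with DMSO. MED12, which activates the kinase through cyclin C, had 5.96 FPKM in the OPA1 library and 7.61 FPKM in the DMSO library, a log2 ratio of -0.31. MED13, which links the kinase module to the rest of Mediator, was at 11.9 FPKM with OPA1 and 13.8 FPKM with DMSO. Its paralog MED13L was at 14.9 FPKM with OPA1 and 16.5 FPKM with DMSO. Both MED13 forms were therefore only slightly lower, and MED13L was 1.25 times MED13 with OPA1 and 1.19 times with DMSO.

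The transcripts behind these sums were less level than the sums. Transcript exchange is used here for the share of a gene's FPKM that was assigned to different listed transcripts in the OPA1 and DMSO libraries. Its median over the genes with several listed transcripts was 41.3% in the kinase module, against 13.8% over all genes. CDK19 shows it most plainly. CDK19-202, the long form, had 9.56 FPKM with OPA1 and 18.9 FPKM with DMSO, while CDK19-203 had 9.23 FPKM with OPA1 and was listed at 0 with DMSO. The gene sum stayed level while 46.2% of it sat on a different transcript, and without CDK19-202 the log2 ratio was 2.17.

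In GENCODE 29 every base of CDK19-203 is also in CDK19-202, and the coding part of CDK19-203 is 312 bases shorter, at 1194 bases against 1506. One difference is exon 6 of the 13 exons of CDK19-202 (chr6:110632030-110632161, GRCh38, minus strand), 132 bases that CDK19-203 lacks. The other 180 bases that are coding in CDK19-202 alone lie outside exon 6 and are not shown. Exon 6 is shown because it encodes the activation segment, the loop of a kinase that lies over the active site. The capitals mark the in-frame codons of its opening Asp-Met-Gly and its closing Ala-Pro-Glu, both conserved landmarks of cyclin-dependent kinases of this type.
CDK19-202 exon 6: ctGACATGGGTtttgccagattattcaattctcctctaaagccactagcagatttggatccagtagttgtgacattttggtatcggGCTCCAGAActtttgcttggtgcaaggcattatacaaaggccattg
CDK19-202, which holds this exon, was lower with OPA1 than with DMSO, while CDK19-203, without it, was above 0 with OPA1 only. The table gives no reads over single exons, so whether exon 6 itself was skipped more often was not measured.

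CCNC rested on 1 of its 6 listed transcripts. CCNC-203 had 0.80 FPKM with OPA1 and 24.1 FPKM with DMSO. Without it, the rest of the gene summed to 14.7 FPKM with OPA1 and 17.5 FPKM with DMSO, a log2 ratio of -0.24. CCNC-210, the next in level, was at 5.32 FPKM with OPA1 and 10.0 FPKM with DMSO, and CCNC-209 was at 5.03 FPKM with OPA1 and 3.71 FPKM with DMSO. All 2118 bases of CCNC-203 lie within CCNC-210, which has 355 bases of its own, and their coding parts are 846 and 849 bases long. The 3 coding bases that differ are at an exon junction (chr6:99549561-99550229, GRCh38, minus strand), shown with 12 bases on either side and the 3 bases in capitals.
CCNC-210 junction: tccccttgcatgGAGgatagtgaatga
CDK8 and MED12 also held different transcripts. CDK8-201 had 0.96 FPKM with OPA1 and 3.38 FPKM with DMSO, and CDK8-202, the remainder, ran the other way, with 0.55 FPKM with OPA1 and a listed 0 with DMSO. MED12-202 had 2.01 FPKM with OPA1 and 6.14 FPKM with DMSO, whereas MED12-201 ran the other way, at 3.48 FPKM with OPA1 and 0.89 FPKM with DMSO, and without MED12-202 the log2 ratio of the gene was 1.0. MED13L turned as well, to 0.33 without MED13L-201.

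**Figure D2:**
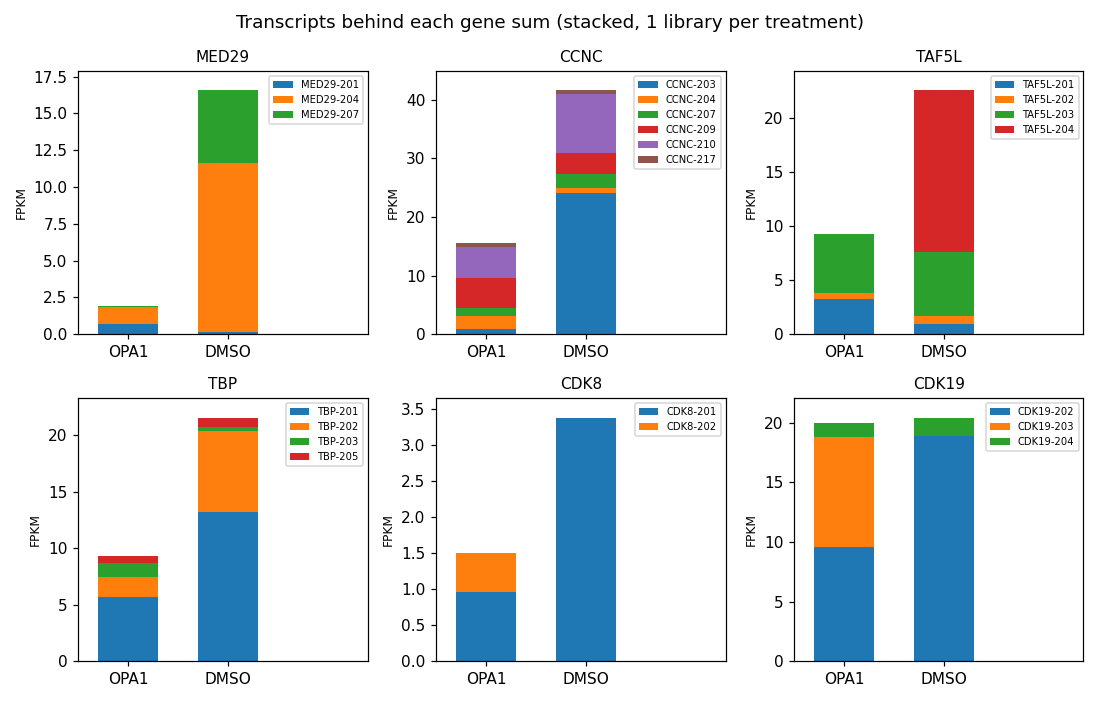
FPKM of the listed transcripts of 6 members, stacked to the gene sum, with the OPA1 library left and the DMSO library right in each panel. CCNC-203 (0.80 with OPA1 and 24.1 with DMSO) and TAF5L-204 make up most of the gap in their genes, the leading DMSO transcripts of MED29 (MED29-204 and MED29-207) and TBP (TBP-201 and TBP-202) are lower, and the CDK19 bars are of equal height with different parts.

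The head module, which grips the polymerase, leaned lower, with 6 of 7 members lower and a median log2 ratio of -0.12. Without the most different transcript of each gene with several, the head split 5 higher to 2 lower. MED17, its central scaffold, was at 1.44 FPKM with OPA1 and 2.46 FPKM with DMSO, a log2 ratio of -0.50. MED22 was at 4.73 FPKM with OPA1 and 5.89 FPKM with DMSO. MED8 and MED6 were slightly lower, with log2 ratios of -0.18 and -0.12, and MED20 and MED11 were lower by less. MED6 had an exchange of 43.5%. Without their most different transcripts MED22, MED6, MED20 and MED11 turned to 0.68, 0.87, 0.28 and 0.50, while MED8 stayed at -0.03. MED18, part of the movable jaw of the head, was the exception, at 9.83 FPKM with OPA1 and 7.82 FPKM with DMSO, a log2 ratio of 0.30 on a single listed transcript.

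The middle module was level by gene sums, with 5 of 9 members higher and a median log2 ratio of 0.00. Without the most different transcript of each gene with several, it split 3 higher to 6 lower, with a median of -0.03. MED21, an essential middle subunit (chromosome 12, 27175479 to 27183689), was the exception in the module. It was at 12.6 FPKM in OPA1-treated cells and 24.0 FPKM in DMSO-treated cells, a log2 ratio of -0.88. The difference lay in MED21-201, at 8.57 FPKM with OPA1 and 21.0 FPKM with DMSO, and without that transcript the remainder had a log2 ratio of 0.35. MED7, a partner of MED21, was at 5.94 FPKM with OPA1 and 7.67 FPKM with DMSO. MED1, the subunit through which nuclear receptors bind Mediator, was at 22.4 FPKM with OPA1 and 26.1 FPKM with DMSO, a log2 ratio of -0.21. MED26, which binds TFIID and elongation factors, was at 3.09 FPKM with OPA1 and 3.45 FPKM with DMSO. The other middle subunits were nearly identical: MED4 was at 37.1 FPKM with OPA1 and 36.6 FPKM with DMSO, and MED9, MED10, MED19 and MED31 also lay within 0.1 of 0. MED14, the backbone of the complex, was at 9.94 FPKM with OPA1 and 11.0 FPKM with DMSO, a log2 ratio of -0.14.

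The tail and the subunits next to it had a median of 0.04, with 5 of 9 members higher, and contained the lowest ratio of all members. Without the most different transcript of each gene with several, they split 2 higher to 7 lower, with a median of -0.55. MED29, a tail-proximal subunit (chromosome 19, 39881951 to 39891277), stood at 1.94 FPKM with OPA1 and 16.6 FPKM with DMSO, which is 8.54-fold lower, with a log2 ratio of -2.58. Both of its main transcripts were lower: MED29-204 had 1.15 FPKM with OPA1 and 11.5 FPKM with DMSO, and MED29-207 had 0.07 FPKM with OPA1 and 4.93 FPKM with DMSO. The minor MED29-201 ran the other way, at 0.72 FPKM with OPA1 and 0.17 FPKM with DMSO. Leaving out MED29-204 left a log2 ratio of -1.77, so the difference in MED29 did not rest on 1 transcript estimate. All 2490 bases of MED29-204 lie within MED29-207, and all 3565 bases of MED29-207 lie within MED29-201. These estimates can share reads, so they are not independent of one another. PAF1, a neighbour of MED29, lies 116 bases away on the opposite strand. PAF1 was at 27.0 FPKM with OPA1 and 29.6 FPKM with DMSO.

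The other tail genes did not share this. MED23, bound by the activator ELK1, was at 7.56 FPKM with OPA1 and 9.34 FPKM with DMSO. MED24 was at 13.8 FPKM with OPA1 and 16.3 FPKM with DMSO. MED23 had an exchange of 37.5% and a log2 ratio of -1.28 without MED23-204. MED24 had an exchange of 25.4% and turned to 0.29 without MED24-203. MED15, a tail subunit bound by activators, was the highest ratio in Mediator, at 11.8 FPKM with OPA1 and 9.28 FPKM with DMSO, a log2 ratio of 0.32. It also had an exchange of 65.5%: MED15-202 had 6.18 FPKM with OPA1 and 0.54 FPKM with DMSO, while MED15-204 had 1.06 FPKM with OPA1 and 4.66 FPKM with DMSO. Without MED15-202 the ratio turned to -0.55. MED27, MED16, MED25 and MED30 were slightly higher, with log2 ratios from 0.04 to 0.13. Without the most different transcript of each, MED27 was at 0.59, while MED25, MED30 and MED16 turned to -0.22, -0.61 and -1.81. MED16 had an exchange of 39.5%. MED28 was level, at 15.0 FPKM with OPA1 and 15.3 FPKM with DMSO.

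**Figure D3:**
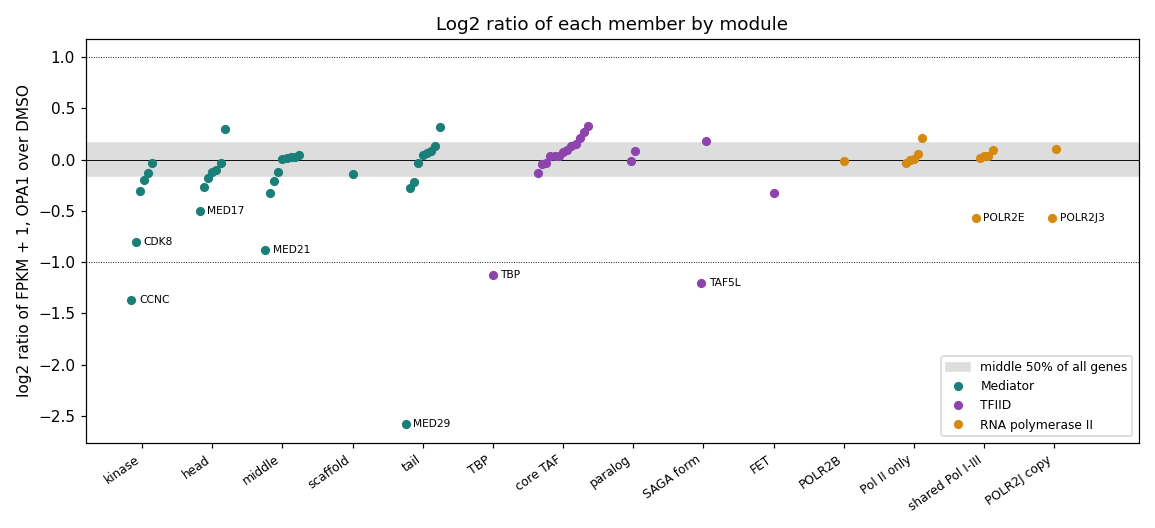
Log2 ratio of OPA1 over DMSO, after adding 1 FPKM, of each member by module; the grey band holds the middle 50% of all genes (-0.15 to 0.16) and the dotted lines mark 2-fold. Every point of the kinase module lies below 0, most core TAFs and polymerase subunits lie in or near the band, and 4 members lie below the lower dotted line.

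Of the 19 TFIID genes, 12 were higher and 7 lower; the median log2 ratio was 0.04 and the middle 50% lay between -0.04 and 0.15. The summed level was nevertheless lower, at 426 FPKM with OPA1 and 443 FPKM with DMSO, and the mean log2 ratio was -0.064, so no direction is given to the list. Of the 13 core TAFs, 10 were higher; their median was 0.07, and they summed to 334 FPKM with OPA1 and 311 FPKM with DMSO. Without the most different transcript of each gene with several, they split 6 higher to 7 lower. TAF9, a histone-fold subunit also found in the SAGA coactivator, had the highest ratio of all members, at 53.2 FPKM with OPA1 and 42.1 FPKM with DMSO, a log2 ratio of 0.33. It rested on TAF9-201, at 44.4 FPKM with OPA1 and 30.8 FPKM with DMSO, and turned to -0.34 without that transcript. The listed span of TAF9 overlaps that of AK6 on the same strand, and AK6 was level, at 60.6 FPKM with OPA1 and 60.0 FPKM with DMSO. TAF6, the histone-fold partner of TAF9, was at 18.8 FPKM with OPA1 and 16.8 FPKM with DMSO, with TAF6-209 at 10.9 FPKM with OPA1 and 5.41 FPKM with DMSO and TAF6-213 opposed to it, and the ratio turned to -0.47 without TAF6-209.

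TAF4, a histone-fold scaffold subunit, was at 9.56 FPKM with OPA1 and 7.76 FPKM with DMSO, a log2 ratio of 0.27. Its partner TAF12 was at 28.3 FPKM with OPA1 and 27.5 FPKM with DMSO. TAF8 was at 7.34 FPKM with OPA1 and 6.21 FPKM with DMSO, and TAF10, its partner, was at 21.2 FPKM with OPA1 and 20.1 FPKM with DMSO. The gene sums of these histone-fold partners had the same sign, except TAF11 and TAF13. TAF12 and TAF10 nevertheless lay within 0.1 of 0, with log2 ratios of 0.04 and 0.07. Without their most different transcripts they turned to -0.08 and -2.85, and TAF10 had an exchange of 31.0%. TAF11 was at 58.1 FPKM with OPA1 and 52.8 FPKM with DMSO, and TAF13 was at 27.9 FPKM with OPA1 and 30.6 FPKM with DMSO. TAF1, the largest subunit, with its double bromodomain, was level at 6.35 FPKM with OPA1 and 6.55 FPKM with DMSO. TAF2, TAF3, TAF5 and TAF7 also lay within 0.1 of 0, and TAF7, which binds TAF1, was the most abundant core TAF at 63.8 FPKM with OPA1 and 62.0 FPKM with DMSO.

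TBP was lower, unlike most TAFs. The gene (chromosome 6, 170863390 to 170881958) stood at 9.37 FPKM in OPA1-treated cells and 21.6 FPKM in DMSO-treated cells, 2.30-fold lower, with a log2 ratio of -1.12. TBP-201 had 5.67 FPKM with OPA1 and 13.2 FPKM with DMSO, and TBP-202 had 1.82 FPKM with OPA1 and 7.20 FPKM with DMSO. Both main transcripts were thus lower, and the log2 ratio was -0.99 without TBP-201. The minor TBP-203 ran the other way, at 1.24 FPKM with OPA1 and 0.31 FPKM with DMSO. TBP-201 and TBP-202 share 1857 bases and have coding parts of the same length, 1017 bases, so their estimates are not independent of one another. PSMB1, 961 bases from TBP, was at 219 FPKM with OPA1 and 236 FPKM with DMSO.

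TAF5L, the form of TAF5 that sits in SAGA (chromosome 1, 229728858 to 229761794), was at 9.22 FPKM with OPA1 and 22.5 FPKM with DMSO, 2.44-fold lower, with a log2 ratio of -1.20. This rested on TAF5L-204 alone, at 0.0036 FPKM with OPA1 and 14.9 FPKM with DMSO. Without it TAF5L summed to 9.22 FPKM with OPA1 and 7.59 FPKM with DMSO, and the ratio turned to 0.25. In GENCODE 29, TAF5L-204 shares 2946 of its 2956 bases with TAF5L-201 and has the same coding length, 1767 bases, and TAF5L-201 was at 3.21 FPKM with OPA1 and 0.94 FPKM with DMSO. TAF5, the TFIID form, was level, so TAF5L was 1.22 times TAF5 with OPA1 and 3.06 times with DMSO. TAF6L, the other SAGA form, was at 3.76 FPKM with OPA1 and 3.20 FPKM with DMSO.

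Among the remaining TFIID genes, TAF15, an RNA-binding protein of the FET family found with part of TFIID and the highest of the list by mean level, was at 56.3 FPKM with OPA1 and 70.8 FPKM with DMSO. Its log2 ratio was -0.32. The paralogs TAF4B and TAF9B, which can replace TAF4 and TAF9, were nearly level, TAF4B at 3.36 FPKM with OPA1 and 3.11 FPKM with DMSO, and TAF9B at 9.95 FPKM with OPA1 and 10.1 FPKM with DMSO. TAF9 was 5.34 times TAF9B with OPA1 and 4.19 times with DMSO.

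RNA polymerase II genes were the most level of the 3 lists. Of 13 genes, 9 (69.2%) lay within 0.1 of 0, against 47.4% of the TFIID and 37.5% of the Mediator genes. None was 2-fold apart, and 8 were higher and 5 lower. The median log2 ratio was 0.02, which became -0.01 when each library was scaled to the same sum, so no direction is given to the list. The summed level was 469 FPKM with OPA1 and 468 FPKM with DMSO. POLR2B, the second-largest subunit and part of the active centre, was at 44.6 FPKM with OPA1 and 45.1 FPKM with DMSO. POLR2A, the largest subunit, had no value in the copy used, so the list is without it.

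The subunits found in polymerase II only were level apart from the stalk subunit POLR2G, at 45.8 FPKM with OPA1 and 39.4 FPKM with DMSO, a log2 ratio of 0.21. Its stalk partner POLR2D was at 11.6 FPKM with OPA1 and 11.1 FPKM with DMSO. POLR2C, an assembly subunit, POLR2I and POLR2J lay closer still: POLR2J was at 81.6 FPKM with OPA1 and 81.3 FPKM with DMSO. Of the subunits shared with polymerases I and III, POLR2K had the highest level of all members, at 117 FPKM with OPA1 and 114 FPKM with DMSO. POLR2F, POLR2H and POLR2L were within 0.1 of 0 as well. POLR2E was the exception, at 14.9 FPKM with OPA1 and 22.5 FPKM with DMSO, a log2 ratio of -0.57. Most of the gap was in POLR2E-213, at 10.8 FPKM with OPA1 and 17.2 FPKM with DMSO, and POLR2E kept steady transcript shares with an exchange of 6.2%.

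The near-identical copies POLR2J2 and POLR2J3 are uncertain, since reads could be split between them and POLR2J. POLR2J3 was at 6.56 FPKM with OPA1 and 10.2 FPKM with DMSO, a log2 ratio of -0.57 that turned to 0.21 without POLR2J3-221, and POLR2J2 was at 4.40 FPKM with OPA1 and 4.03 FPKM with DMSO. POLR2J itself was 12.4 times POLR2J3 with OPA1 and 7.94 times with DMSO. Overlapping listed genes concerned 12 of the 64 members, and whether reads were counted by strand is not given in the sources used here. One of them is POLR2B, whose listed span overlaps IGFBP7, at 71.5 FPKM with OPA1 and 37.4 FPKM with DMSO.

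Gene ratios and transcript exchange went together among the members. Both come from the same transcript values, and a gene with 1 listed transcript has no exchange by definition. A sum that differs through some of its transcripts also shows exchange, so part of this link is fixed in advance. All 4 genes that were 2-fold lower had an exchange over 10%, as did 26 of the 64 members. Those 26 split 8 higher to 18 lower with a median log2 ratio of -0.24, while the 16 members with 1 listed transcript split 10 to 6 with a median of 0.03 and none beyond 0.30 in size. Over all genes, 6.53% of those with an exchange over 10% were 2-fold apart either way, against 0.798% of those with several transcripts and at most 10% exchange and 3.51% of those with 1 transcript. Unlike the members, all genes with an exchange over 10% split evenly, 2086 higher to 2111 lower. As for exchange itself, 26 of the 48 members with several transcripts were over 10%, beside 58.3% of all such genes, and 3 (CCNC, MED15 and TAF5L) reached 50%, beside 14.6% of all such genes.

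Without the most different transcript, 30 of the 48 members with several transcripts changed sign. That transcript ran the same way as its gene in 46 of the 48, so leaving it out works against the gene's direction by construction. MED29, CCNC and TBP kept their sign, and TAF5L did not.

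The lean of Mediator was found in its genes with exchange. Exchange and ratio come from the same values, so this split is a description and not a separate check. The 15 Mediator genes with an exchange over 10% split 2 higher to 13 lower, with a median of -0.27. The other 17 split 9 to 8, with a median of 0.00. Of the TFIID genes with an exchange of at most 10%, 8 of 11 were higher (median 0.04), and of those of polymerase II 6 of 10 were higher (median 0.02). The part of the transcript estimates in the lower Mediator sums was not tested. Of the 26 members with an exchange over 10%, 10 had a different leading transcript in each library, and those leading pairs shared between 32.9% and 100% of the bases of the shorter transcript, with a median of 99.3%.

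**Figure D4:**
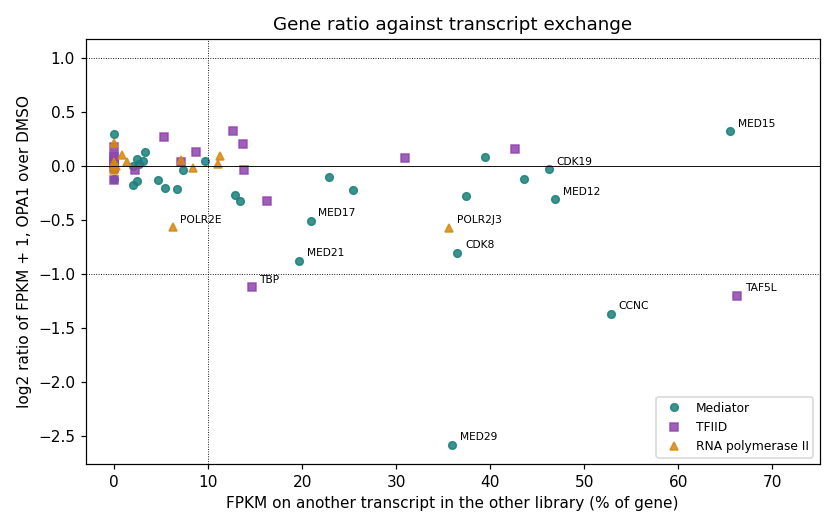
Log2 ratio of OPA1 over DMSO, after adding 1 FPKM, against the transcript exchange of the gene in percent, for the 64 members; the vertical dotted line marks 10% and the horizontal ones 2-fold. Left of the vertical line no member but POLR2E (-0.57) is further than 0.30 from 0, and the 4 members below the lower horizontal line all lie right of it.

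The promoters of the 4 genes that were 2-fold lower are shown because these genes had the lowest ratios of all members. Each is the 100 bases before the RefSeq start (RefSeq, GRCh38.p14), at chr19:39391278-39391377 on the plus strand for MED29, chr6:99568661-99568760 on the minus strand for CCNC, chr1:229626123-229626222 on the minus strand for TAF5L and chr6:170554269-170554368 on the plus strand for TBP. Of the 2 RefSeq starts of CCNC, the one nearest to the start of CCNC-203 was taken. CCNC-210, the leading CCNC transcript with OPA1, starts upstream at chr6:99568973, so the CCNC window lies within its span. MED29-207 (chr19:39391323) and MED29-201 (chr19:39391311) start inside the MED29 window. TBP-202 (chr6:170554333) and TBP-203 (chr6:170554302) start inside the TBP window. These windows thus lie before some listed transcripts and partly within others. The TAF5L window lies next to the start of TAF5L-201 (chr1:229626047), which was at 3.21 FPKM with OPA1 and 0.94 FPKM with DMSO. TAF5L-204, on which the lower TAF5L sum rested, starts downstream of this window, at chr1:229614482. The bases before the TAF5L-204 start are not shown. Capitals mark matches, on either strand, to the motifs named after the sequences.
MED29 promoter: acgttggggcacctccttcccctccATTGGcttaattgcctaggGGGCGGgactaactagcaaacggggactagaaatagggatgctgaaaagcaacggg
CCNC promoter: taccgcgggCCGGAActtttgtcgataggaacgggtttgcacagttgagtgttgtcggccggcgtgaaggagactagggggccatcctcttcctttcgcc
TAF5L promoter: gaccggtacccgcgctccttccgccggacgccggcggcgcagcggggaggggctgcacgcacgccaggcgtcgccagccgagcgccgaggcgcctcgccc
TBP promoter: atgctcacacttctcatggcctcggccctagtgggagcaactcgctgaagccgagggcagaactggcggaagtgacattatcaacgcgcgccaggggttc
MED29 held CCAAT, the NF-Y motif, on the minus strand and GGGCGG, the core of the GC box bound by Sp1. CCNC held CCGGAA, the string searched for ETS-family sites. None of the exact strings searched was found in the windows of TAF5L and TBP, and the 4 windows shared none of them. Shorter or variant forms of these sites were not searched, so a shared site of that kind could have been missed.

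The same letters were searched on both strands in the windows of all genes with a RefSeq start. Unlike the members, these genes were not required to reach 1 FPKM here. The shares below therefore do not tell the members from expressed genes in general, which were not counted apart. TATAAA, the TATA box that TBP itself contacts, was in 4.99% of 35116 windows and in 0 of the 60 windows of the 48 members that matched the promoter table. GGGCGG was in 48.3% of the member windows, against 31.3% of all windows. CCGGAA was in 15 of the 60 member windows, against 8.81% of all windows. CCAAT was about as frequent in members as elsewhere, at 16.7% against 18.1%. A match describes the letters of the window and says nothing of binding.

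Other genes of the transcription machinery were followed in the same way. The 18 general transcription factors split 10 higher to 8 lower, with a median log2 ratio of 0.02 and none 2-fold apart. The lowest were ERCC3, the TFIIH helicase that opens promoter DNA, at 11.0 FPKM with OPA1 and 16.7 FPKM with DMSO, and GTF2A2, a TFIIA subunit that stabilises TBP on DNA, at 22.9 FPKM with OPA1 and 31.2 FPKM with DMSO. The 21 elongation and pausing factors split 11 to 10 with a median of 0.02. One of them, NELFA, a subunit of the pausing complex NELF, was 2-fold lower, at 1.16 FPKM with OPA1 and 9.40 FPKM with DMSO, with an exchange of 85.1%. NELFCD, another NELF subunit, was at 1.02 FPKM with OPA1 and 1.98 FPKM with DMSO. The more abundant NELF subunits ran the other way. NELFE was at 59.4 FPKM with OPA1 and 41.2 FPKM with DMSO, and NELFB was at 35.3 FPKM with OPA1 and 32.1 FPKM with DMSO. NELFE had an exchange of 37.1% and NELFB of 1.1%.

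The 13 genes of SAGA, the coactivator that shares TAFs with TFIID, split 4 higher to 9 lower with a median of -0.05. SGF29, its reader of methylated histone H3, was at 6.69 FPKM with OPA1 and 11.2 FPKM with DMSO, and ENY2 was at 25.2 FPKM with OPA1 and 30.0 FPKM with DMSO. The 14 genes of Integrator, which cleaves nascent RNA, split 7 to 7. INTS3 was at 7.51 FPKM with OPA1 and 14.4 FPKM with DMSO. INTS9, part of the cleavage module, was at 9.49 FPKM with OPA1 and 6.02 FPKM with DMSO. INTS3 had an exchange of 31.1% and INTS9 of 88.1%. None of the genes of these lists was 2-fold apart.

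Subunits of the other nuclear polymerases gave a like picture. The 8 polymerase I genes split 4 to 4, and POLR1B, the second-largest subunit of that enzyme, was at 7.79 FPKM with OPA1 and 4.14 FPKM with DMSO. ZNRD1, a small polymerase I subunit, was at 13.1 FPKM with OPA1 and 10.8 FPKM with DMSO. POLR1B had an exchange of 69.1% and ZNRD1 of 23.3%. The 10 polymerase III genes split 7 to 3 with a median of 0.08. POLR3G was at 3.55 FPKM with OPA1 and 2.80 FPKM with DMSO, and its paralog POLR3GL was at 38.1 FPKM with OPA1 and 32.2 FPKM with DMSO. The 4 genes of SL1, the TBP-containing factor of polymerase I, split 2 to 2. TAF1C was at 4.87 FPKM with OPA1 and 2.65 FPKM with DMSO, and TAF1A was at 4.13 FPKM with OPA1 and 4.74 FPKM with DMSO. TAF1C had an exchange of 69.5% and TAF1A of 14.5%.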

How the data were processed

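RNA-seq of 2 THP-1 libraries was analysed, grouped by the treatment label. The deposited values are FPKM per protein-coding transcript, per the file headers. HISAT, StringTie, edgeR and hg19 appear in the submitters' processing notes without version or role. Whether reads were stranded or RNA was poly(A)-selected is not given in the sources used here. Transcripts estimated from shared reads are not independent, and a listed 0 may be a failed estimate. Each transcript reached 0.5 FPKM in 1 library, and 2 lines were empty in the copy used.

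Transcripts were summed per symbol, genes averaging under 1 FPKM were left out, and log2 ratios of OPA1 over DMSO were taken after adding 1 FPKM. With 1 library per group no test or interval was computed. The members and lists were chosen with earlier results of these data known. Named were members 2-fold apart, the 6 largest ratios and the highest and lowest level of each complex, and exchanges of at least 50%. Also named were 11 fixed genes and the 2 largest ratios of each other list. Further members, NELFE and NELFB were named for completeness after their values were seen. GTF2I and its relatives were left out of the general factors. Transcript models came from GENCODE 29 (GRCh38), matched by transcript ID for all 172 member transcripts, and coordinates of the 2 builds were not mixed. Promoters came from RefSeq. Alternatives were another pseudocount, filter, scaling, transcript rule, member rule or summary, and, chosen after seeing the data, the sum without the most different transcript. The counting was checked on simulated data. Figures used matplotlib 3.10.9, and values pandas 2.3.3 and numpy 2.4.6 under Python 3.11.15.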

Additional observations from a re-analysis of the deposited data

How the results depend on the processing

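No paired analysis was possible because each treatment had 1 library. Depth is unknown, so no difference has an error, and low genes such as CDK8 and MED17 are least certain. The median log2 ratio ran over all alternatives from -0.24 (mean in place of median) to 0.0047 (genes with at most 10% exchange) for Mediator, from -0.064 (mean) to 0.07 for TFIID, and from -0.05 to 0.04 for polymerase II. Of all genes, 209 were 2-fold higher and 211 lower; these counts were 576 and 539 at 1.5-fold, 360 and 411 with libraries rescaled to 1000000, 114 and 120 at a minimum of 5 FPKM, 629 and 570 with the most abundant transcript, 71 and 60 at steady shares, and 454 and 494 without the most different transcript; a pseudocount of 0.1 gave 325 higher and 315 lower. Mediator had 2 genes 2-fold lower, but 4 at 1.5-fold, 6 with the most abundant transcript, 1 without the kinase module and 0 at steady shares, and it had 1 gene 2-fold higher with the most abundant transcript and 2 without the most different one. TFIID had 2 genes 2-fold lower, but 0 for core TAFs, 0 at steady shares and 1 without the most different transcript, and polymerase II had 1 with the most abundant transcript. Fewer members entered the restricted counts: 8 Mediator genes were lower at steady shares, 3 TFIID genes at steady shares and 3 among core TAFs, and 3 polymerase II genes were higher and 3 lower without shared subunits and copies. Without the most different transcript 4 polymerase II genes were higher and 9 lower. Without its most different transcript TAF5L reversed to 0.25, and of the genes under 2-fold, CDK19 turned to 2.17, MED12 to 1.0, CDK8 to 0.63, MED21 to 0.35, POLR2J3 to 0.21, TAF1 to 0.17, TAF9 to -0.34, POLR2F to -0.53, MED15 to -0.55, POLR2D to -0.69 and POLR2K to -0.76; TFIID then split 9 higher to 10 lower, with a median of -0.0042. CDK8 became 2-fold lower with a pseudocount of 0.1 (-1.11) and on rescaling (-1.04).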
